A study of Homo sapiens with 6 samples.

Results

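LIN28A, LIN28B, HMGA1, HMGA2, IGF2BP1, IGF2BP2 and IGF2BP3 form 3 small families of oncofetal genes, that is, genes active in embryonic tissue, switched down in most adult tissue and active again in many tumours. They were taken by symbol, as the human LIN28, HMGA and IGF2BP family members, with earlier results of these data known. They are 7 of 26485 gene symbols counted, and each of the 7 is among the 13632 genes that passed the filter on low counts and were tested. RNA was sequenced from AF22, an established human neural stem cell line derived from induced pluripotent stem cells, in 6 libraries. The 3 control libraries came from AF22 cells of WT genotype that carried a control short hairpin RNA (shControl). The 3 knockdown libraries came from AF22 cells labelled as a knockdown of COMMD3 and of COMMD3-BMI1, a readthrough transcript of COMMD3 and its neighbour BMI1. The reagent is not described in the labels, and all 6 libraries come from 1 cell line. Nor do they say whether the replicates were grown apart, so every p-value here sets a difference against the spread of these 6 libraries alone, and that spread may be technical.

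The libraries held 7294687 to 11579849 counts, of which the 7 genes took 0.273% to 0.297%. Levels are in CPM, the count scaled to a fixed library size after adjustment for composition, as mean ± SD over 3 libraries. Where single libraries are given, they follow the order of replicates 1, 2 and 3. COMMD3 was at 29.7 ± 2.04 CPM in control and 11.6 ± 1.22 CPM in knockdown libraries, 2.58-fold lower (edgeR adjusted p = 2.34e-12). For BMI1 the log2 fold change was −0.07 (edgeR adjusted p = 0.206), and COMMD3-BMI1 was listed at 0 in every library, controls included, so only the lowering of COMMD3 can be seen in these counts. Of 16 markers of neural stem cells 15 were tested, and their summed level was 3217 to 3406 CPM in control and 3166 to 3279 CPM in knockdown libraries, with HES5 listed at 0. Of the 15, 1 was higher, 6 lower and 8 did not pass the test. Over all tested genes 15.3% were called higher and 18.1% lower, shares that belong beside each marker count here. The higher one was MSI1, from 139 to 152 CPM (edgeR adjusted p = 0.031). NES was at 659 CPM in control and 703 CPM in knockdown libraries, and VIM at 1150 CPM and 1187 CPM, and neither passed the test. The lower ones included NOTCH1, from 160 to 118 CPM (edgeR adjusted p = 1.08e-07), HES1, from 66.5 to 53.4 CPM (edgeR adjusted p = 0.000184), PROM1, from 97.2 to 81.2 CPM (edgeR adjusted p = 6.65e-05), and SOX2, from 288 to 260 CPM (edgeR adjusted p = 0.00909). Of 14 pluripotency markers 5 were tested and 6 were listed at 0 in every library, of 12 leukocyte markers 1 was tested, and the glial markers GFAP and SOX10 were listed at 0. Of 8 neuronal markers tested 1 was higher and 3 lower, of 7 glial markers 0 and 3, and of 10 mesenchymal markers 2 and 5, and their part in the results was not tested. In RNA from a whole culture, fewer cells of a type and less RNA per cell cannot be told apart.

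LIN28A and LIN28B are RNA-binding proteins that hold back the maturation of let-7, a family of small RNAs (miRNAs) that guide Argonaute proteins to matching stretches in the 3′ untranslated region (UTR) of messenger RNAs and lower them. HMGA1 and HMGA2 bend AT-rich DNA and open chromatin in dividing progenitor cells. IGF2BP1, IGF2BP2 and IGF2BP3 bind messenger RNAs, many of them marked by N6-methyladenosine (m6A), and hold them stable. The families are linked, because let-7 targets messages of LIN28, HMGA2 and IGF2BP genes, and in the developing brain the decline of LIN28 and HMGA2 accompanies the shift of neural stem cells from early to late output.

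The sequences that join the 3 families are the seed of let-7 and its match in each gene's 3′ UTR. RefSeq (GRCh38.p14) lists 12 loci for let-7 and miR-98, which give 9 distinct mature 5p sequences with 1 shared seed, GAGGUAG (bases 2 to 8). The examples below, with the seed in capitals, show how the shared start is followed by small differences, and include those whose host genes are described with the results.
hsa-let-7a-5p: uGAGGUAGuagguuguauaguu
hsa-let-7c-5p: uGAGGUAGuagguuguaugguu
hsa-let-7f-5p: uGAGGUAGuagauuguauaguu
hsa-miR-98-5p: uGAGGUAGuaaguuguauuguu
hsa-miR-125b-5p: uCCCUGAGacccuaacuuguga
These lie at chr9:94175962-94175983 on the plus strand for the MIRLET7A1 copy of let-7a, at chr21:16539838-16539859 on the plus strand for let-7c, and at chrX:53556299-53556320 on the minus strand for miR-98. The miR-125b sequence is shown because its seed, CCCUGAG, has a match in both LIN28 genes.

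The word CTACCTC, the reverse complement of the let-7 seed, was searched in the sense strand of every coding transcript's 3′ UTR (GENCODE v29, GRCh38). Each of the 7 genes holds it at least once. In the sites below the match is in capitals, and a final a marks the adenosine after the match that strengthens such sites.
LIN28A: gtgcacagcctattgaaCTACCTCa
LIN28B: ttacccggttgcaaagtCTACCTCa
HMGA1: tttcctctgttcacaaaCTACCTCt
HMGA2: gcgccaacgttcgatttCTACCTCa
IGF2BP1: gctgtgtgcgaagtaaaCTACCTCa
IGF2BP2: aaaacacacagaagaagCTACCTCa
IGF2BP3: cgtgcatttttactcaaCTACCTCa
LIN28A, miR-125 match: tcaggtacatgagcaatCTCAGGGa
The LIN28A site lies at chr1:26427346-26427370 and is the only let-7 match in its 3264-base 3′ UTR. The LIN28B site at chr6:105078810-105078834 is the first of 4, of which 2 are followed by A. HMGA2 has 4 matches, the first at chr12:65963296-65963320, of which 1 is followed by A. They lie in the 3003-base 3′ UTR of 1 transcript and not in the longest annotated one of 7421 bases. IGF2BP1 has 4, the first at chr17:49051059-49051083, and 3 of these are followed by A. HMGA1 (chr6:34245827-34245851), IGF2BP2 (chr3:185644220-185644244, minus strand) and IGF2BP3 (chr7:23311795-23311819, minus strand) hold 1 each, and only that of HMGA1 is not followed by A. The miR-125 match CTCAGGG occurs 1 time in LIN28A (chr1:26427242-26427266), 1 time in LIN28B and in none of the other 5 genes. Over all tested genes with a 3′ UTR of 50 bases or more, 12.5% hold the let-7 match in some coding transcript and 16.9% the miR-125 match in the longest 3′ UTR. A match describes the sequence and does not show that the site is used in these cells.

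Of the 7 genes, LIN28A and IGF2BP3 were higher in the knockdown libraries and the other 5 did not pass the test. LIN28A differed 1.5-fold and IGF2BP3 1.11-fold. Across the 13632 tested genes 15.3% were called higher at an edgeR adjusted p under 0.05, 18.1% lower and 33.3% in either direction, so 2 of 7 is close to the background. The higher calls were 45.9% of all calls, and 49.7% with upper-quartile scaling or 53.4% with library totals alone, so which direction has more calls depends on the scaling. The same 2 genes were called higher at an adjusted p under 0.01, by DESeq2 and by limma-voom, which called 21.6%, 21.4% and 33.1% of genes in either direction, for DESeq2 out of the 13367 genes to which it gave an adjusted p. The groups of libraries did not overlap for the same 2 genes, against 44.3% of all tested genes. The median log2 fold change of the 7 was −0.03, against 0.00 over all tested genes. The summed level of the 7 was 2728 to 2945 CPM in control and 2928 to 2958 CPM in knockdown libraries.

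**Figure D1:**
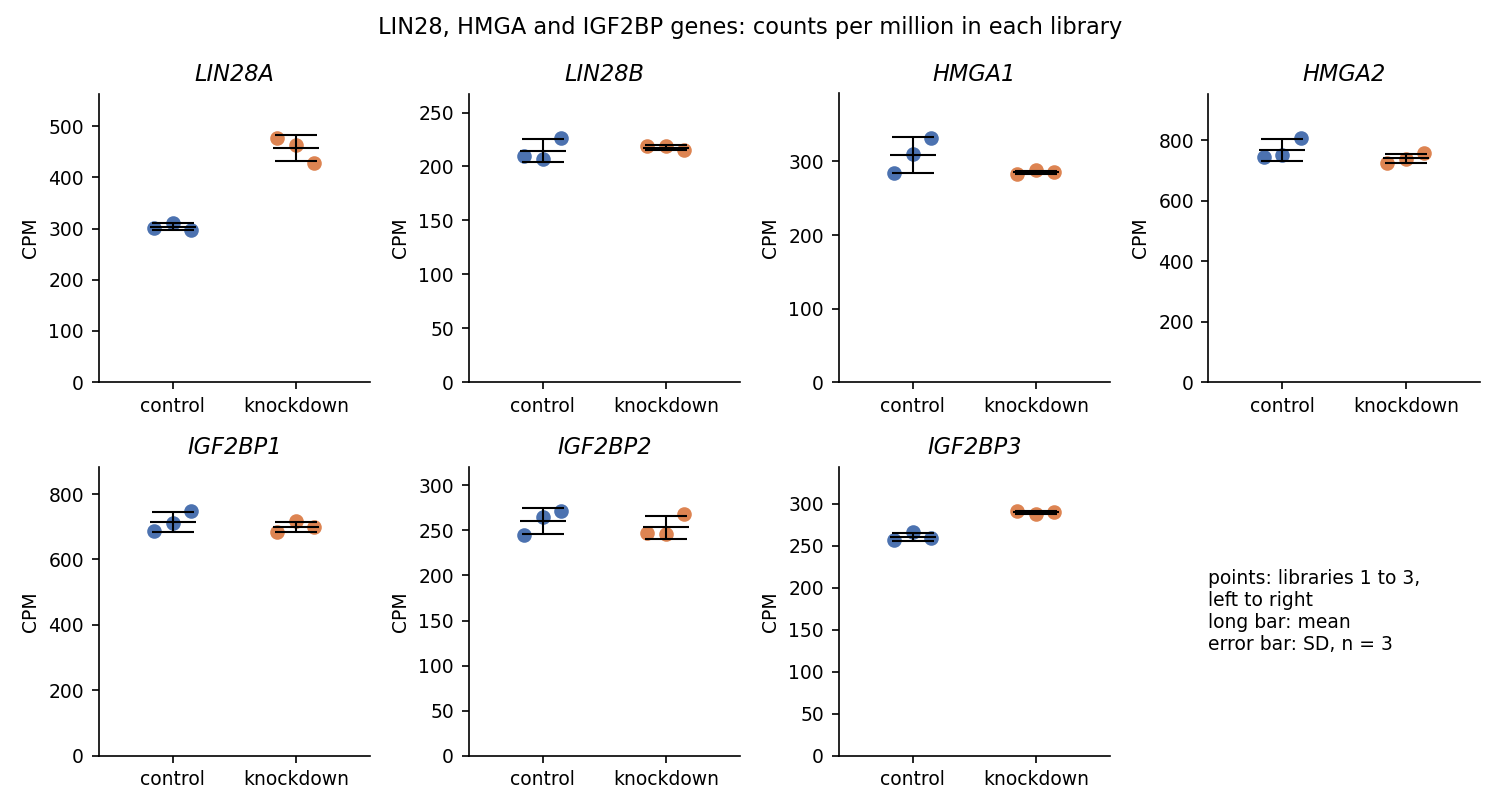
Level of each of the 7 genes in every library, in CPM (y axis), with control and knockdown libraries side by side (points) and the mean ± SD of 3 libraries. LIN28A at 298 to 311 CPM in control and 429 to 478 CPM in knockdown libraries has the widest gap between groups, IGF2BP3 has a small gap, and the points of the other 5 genes overlap.

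LIN28A (ENSG00000131914, chr1:26410778-26429722, plus strand) encodes the cytoplasmic LIN28 protein known from pluripotent cells, where it recruits enzymes that tag precursor let-7 for decay. Its level was 302, 311 and 298 CPM in the control libraries and 478, 463 and 429 CPM in the knockdown libraries. Every knockdown library was above every control library, and the lowest knockdown value stood well apart from the highest control value. The log2 fold change was 0.59 (SE 0.0459, 95% confidence interval 0.50 to 0.68, edgeR adjusted p = 1.2e-11). A log2 fold change of this size or more was found for 384 tested genes, 2.82% of the total. No annotated gene overlaps the exons of LIN28A on the opposite strand.

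LIN28B (ENSG00000187772, chr6:104936616-105083332, plus strand) encodes the paralog that can also bind primary let-7 in the nucleus. Its level was 210, 207 and 227 CPM in the control libraries and 219, 219 and 215 CPM in the knockdown libraries. The knockdown values fell inside the control range. The log2 fold change was 0.02 (95% confidence interval −0.07 to 0.11, edgeR adjusted p = 0.727), an interval whose upper bound is below the lower bound for LIN28A.

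The ratio of counts of LIN28B to LIN28A within a library was 0.695, 0.665 and 0.762 in the control libraries and 0.458, 0.472 and 0.502 in the knockdown libraries. The ratio was lower in each knockdown library than in each control library. Its log2 value moved from −0.50 ± 0.0996 to −1.07 ± 0.0676, a difference of −0.57. A two-sided exact permutation test gave p = 0.1, the smallest that 3 libraries against 3 allow (0.167 after adjustment over 5 ratios). A ratio within a library shows unequal change of the 2 genes and does not depend on the scaling between libraries.

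HMGA1 (ENSG00000137309, chr6:34236873-34246231, plus strand) encodes the HMGA protein that is also made in many dividing adult cells. It was at 285, 310 and 332 CPM in the control libraries and at 283, 288 and 285 CPM in the knockdown libraries. The knockdown libraries lay close together at the low end of the control range, and the groups overlapped through control replicate 1. The log2 fold change was −0.11 (95% confidence interval −0.21 to −0.01, edgeR adjusted p = 0.0769, unadjusted p = 0.0293). Without control replicate 1 the value was −0.17 with adjusted p = 0.00983, so 1 library decides whether HMGA1 passes the threshold. With the replicate number as a block the value was −0.11 with adjusted p = 0.0249. HMGA1 has near-identical processed copies in the genome, and how reads that match several places were counted is not known here. The 1 such copy among the symbols, HMGA1P7, was listed at 0 in every library.

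HMGA2 (ENSG00000149948, chr12:65824131-65966295, plus strand) encodes the more strictly embryonic HMGA protein, which supports self-renewal of fetal neural stem cells. It had the most counts of the 7 genes. Its level was 744, 751 and 809 CPM in the control libraries and 726, 738 and 757 CPM in the knockdown libraries. The groups overlapped, and the log2 fold change was −0.05 (95% confidence interval −0.14 to 0.04, edgeR adjusted p = 0.4). The log2 ratio of HMGA2 to HMGA1 counts was 1.32 ± 0.0613 in control and 1.38 ± 0.0301 in knockdown libraries (two-sided exact permutation p = 0.3, 0.375 adjusted over 5 ratios).

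IGF2BP1 (ENSG00000159217, chr17:48997412-49055650, plus strand) encodes the family member best known for shielding MYC and other growth-related messages. It was at 686, 710 and 748 CPM in the control libraries and at 684, 716 and 698 CPM in the knockdown libraries. The groups overlapped almost fully. The log2 fold change was −0.03 (95% confidence interval −0.12 to 0.06, edgeR adjusted p = 0.638).

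IGF2BP2 (ENSG00000073792, chr3:185643739-185825056, minus strand) encodes the member that stays active in some adult tissues and is an HMGA2-responsive gene. It was at 245, 265 and 272 CPM in the control libraries and at 247, 246 and 268 CPM in the knockdown libraries. Each knockdown value lay within the control range, with a log2 fold change of −0.04 (95% confidence interval −0.13 to 0.06, edgeR adjusted p = 0.602).

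IGF2BP3 (ENSG00000136231, chr7:23310209-23470467, minus strand) encodes the member most used as a tumour marker. It was at 256, 266 and 259 CPM in the control libraries and at 291, 288 and 290 CPM in the knockdown libraries. The libraries of each group lay close together and the groups did not overlap. The log2 fold change was 0.15 (SE 0.042, 95% confidence interval 0.07 to 0.24, edgeR adjusted p = 0.00502). On the opposite strand MALSU1 overlaps 17.9% of the exon bases of IGF2BP3, and whether the counting used strand is not given in the sources used here. MALSU1 was at 21.7 ± 0.535 CPM in control and 23 ± 1.31 CPM in knockdown libraries (log2 fold change 0.09, edgeR adjusted p = 0.465).

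**Figure D2:**
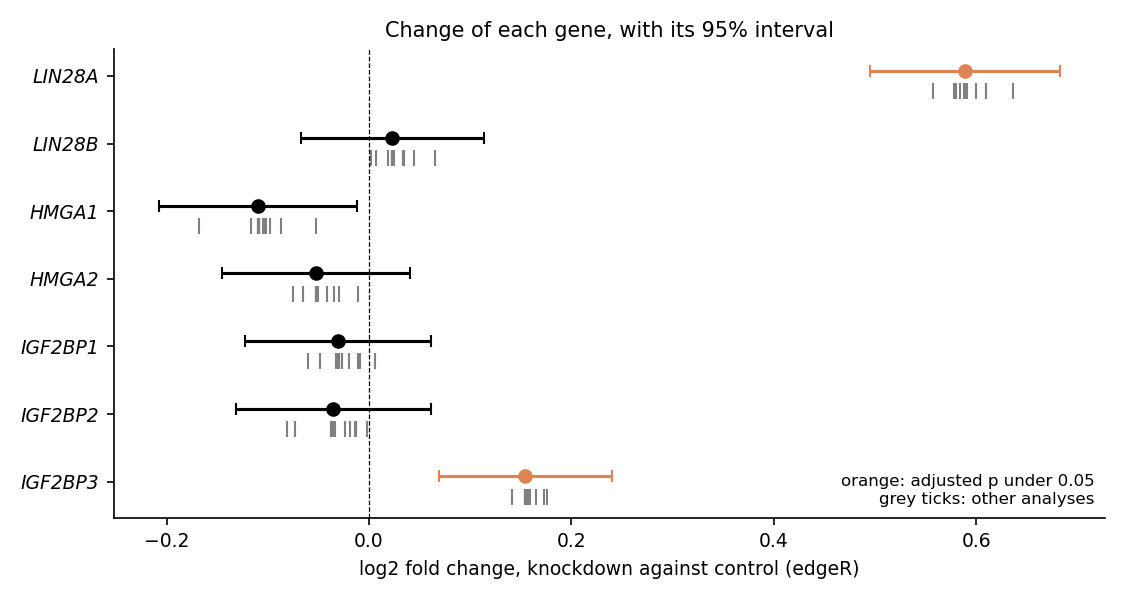
Log2 fold change of knockdown against control for each of the 7 genes (x axis) with its 95% confidence interval from the edgeR fit (bars), and a line at no change. LIN28A at 0.59 stands apart, IGF2BP3 at 0.15 has an interval above 0 and HMGA1 at −0.11 one just below 0, and the intervals of the other 4 genes span 0.

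Within the IGF2BP family the log2 ratio of IGF2BP3 to IGF2BP1 counts moved from −1.46 ± 0.0638 in control to −1.27 ± 0.042 in knockdown libraries, a difference of 0.19. IGF2BP3 and IGF2BP2 had nearly equal counts in control libraries, with a log2 ratio of 0.0013 ± 0.0673, and in knockdown libraries the log2 ratio was 0.19 ± 0.0675. For both ratios the groups did not overlap, and the two-sided exact permutation p was 0.1, the smallest possible, or 0.167 adjusted over 5 ratios. The log2 ratio of IGF2BP2 to IGF2BP1 differed by −0.0079 between groups (two-sided exact permutation p = 0.9, also 0.9 after adjustment).

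**Figure D3:**
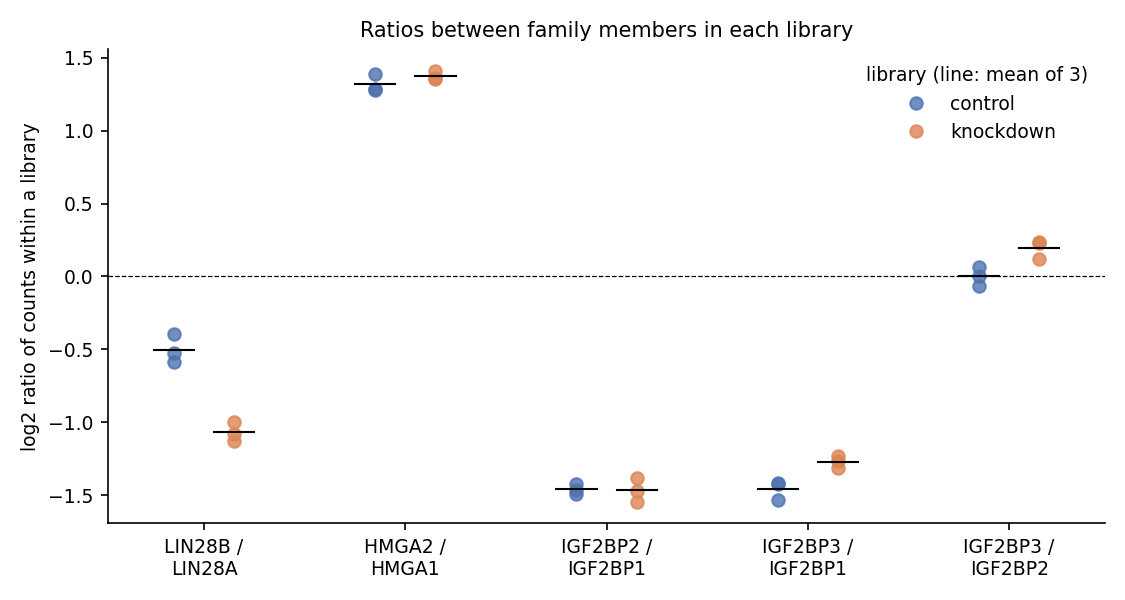
Log2 ratio of counts of 2 family members within each library (y axis) for the 5 pairs tested, with control and knockdown libraries as points and a line at each group mean. LIN28B to LIN28A is lower in all 3 knockdown libraries (mean −1.07 against −0.50), the ratios with IGF2BP3 on top are higher in all 3, and the other pairs overlap.

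Levels of different genes were compared per kilobase of annotated exon. In control libraries the order was HMGA1 at 133 ± 10.3 CPM per kilobase, IGF2BP1 at 78.5 ± 3.41, LIN28A at 75.8 ± 1.7, IGF2BP2 at 55 ± 2.96, HMGA2 at 49.9 ± 2.32, LIN28B at 35.7 ± 1.79 and IGF2BP3 at 30.6 ± 0.592. IGF2BP1 and LIN28A did not differ beyond the sum of their SDs, nor did IGF2BP2 and HMGA2. In knockdown libraries LIN28A stood at 114 ± 6.33 CPM per kilobase, above IGF2BP1 at 76.8 ± 1.78, while HMGA1 stayed first at 123 ± 0.925 and IGF2BP3 last at 34.1 ± 0.205. The order depends on the length used. Per kilobase of the longest coding transcript, an alternative added after the data were seen, HMGA2 moved from the fifth place to the second in control libraries, at 94.9 CPM per kilobase. By that length LIN28B was last, at 39 CPM per kilobase.

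The genes whose log2 CPM was most like that of LIN28A over the 6 libraries were SPTLC1, SUCO and AKTIP, each with a Pearson r of 0.998. Among those most like IGF2BP3 were MTMR3 and DFFB (both 0.995). SPTLC1, a subunit of the enzyme that starts sphingolipid synthesis, was at 107 ± 1.32 CPM in control and 126 ± 2.34 CPM in knockdown libraries. MTMR3, a lipid phosphatase, was at 99 ± 3.22 CPM and 120.2 ± 0.628 CPM. Among 11646 genes compared, 499 had an r above 0.95 with LIN28A and 448 with IGF2BP3. The 6 libraries form 2 groups, so genes clearly higher in the knockdown libraries tend to have a high r with each of these.

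Among the genes that make or act on let-7, TRIM25 was higher by more than LIN28A, and AGO1 was lower by about as much. Of 23 such genes, all tested, 3 were higher, 8 lower and 12 did not pass the test, with a median log2 fold change of −0.01. Over all tested genes 15.3% were called higher and 18.1% lower. TRIM25, a ubiquitin ligase that binds RNA with LIN28A in the tagging of precursor let-7 and is also an interferon-induced gene, was higher. Its level was 46.1, 51.9 and 48.6 CPM in the control libraries and 207, 188 and 193 CPM in the knockdown libraries. All knockdown libraries stood far above all control libraries, with a 4.03-fold difference (log2 fold change 2.01, edgeR adjusted p = 5.85e-24).

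AGO1, an Argonaute protein that holds miRNAs, fell from 130 ± 3.81 to 86.7 ± 1.1 CPM (log2 fold change −0.59, edgeR adjusted p = 1.05e-11). DICER1, which cuts precursor miRNAs, fell from 361 ± 7.22 to 296 ± 8.6 CPM (−0.28, edgeR adjusted p = 4.9e-06). XPO5, which carries precursors out of the nucleus, fell from 216 ± 13.8 to 188 ± 5.96 CPM (−0.20, edgeR adjusted p = 0.00153). The 3 genes share the 3′ UTR word TCATCCA, described with the seed matches. Other genes with such roles, given here after their values were seen, went different ways. PRKRA was lower, at −0.20 on the log2 scale (edgeR adjusted p = 0.00354), as was DGCR8 at −0.14 (edgeR adjusted p = 0.0455). The Argonaute gene AGO4 rose by 0.17 on the log2 scale (edgeR adjusted p = 0.0318). DROSHA, which cuts primary miRNAs, was at −0.02 (edgeR adjusted p = 0.844), TARBP2, a partner of DICER1, at 0.10 (edgeR adjusted p = 0.191) and AGO3 at 0.00 (edgeR adjusted p = 0.997).

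For 3 further genes, named after their values were seen, the calls did not hold in every fit that left out 1 library. AGO2, the Argonaute that cleaves targets, was at 30.2 ± 0.537 and 24.7 ± 1.83 CPM (−0.28, edgeR adjusted p = 0.00684, and 0.0632 without knockdown replicate 1). TUT4, listed as ZCCHC11, adds the uridine tail that LIN28A calls for, and was at 123 ± 7.19 and 110 ± 3.1 CPM. It differed by −0.16 on the log2 scale, with an edgeR adjusted p of 0.0111, 0.0845 without control replicate 3 and 0.0666 without knockdown replicate 1. TUT7, listed as ZCCHC6, differed by −0.20 on the log2 scale (edgeR adjusted p = 0.0331), with 0.0837 without control replicate 1, 0.11 without control replicate 2, 0.134 without knockdown replicate 1 and 0.128 without knockdown replicate 2. By DESeq2 the adjusted p was 0.056 for ZCCHC11 and 0.151 for ZCCHC6.

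Mature let-7 was not measured, since the libraries were made from long RNA. The 11 hairpin symbols of the family held 68 counts in control and 73 in knockdown libraries together, with 16 at most in a library and 4 symbols listed at 0 in all. Host genes of some loci were counted, which gives the level of host RNA. How much let-7 is made from these loci was not tested. MIR99AHG, whose span holds let-7c and miR-125b, fell from 35.9 ± 0.615 to 26.6 ± 1.14 CPM (log2 fold change −0.43, edgeR adjusted p = 2.95e-05). HUWE1, a ubiquitin ligase gene whose span holds a let-7f copy and miR-98, fell from 492 ± 27.1 to 420 ± 31.2 CPM (−0.23, edgeR adjusted p = 0.000836). The other 3 tested host genes did not pass the test, among them MIR100HG (−0.05, edgeR adjusted p = 0.56), which spans another let-7a copy and miR-125b, and WDR82 (0.09, edgeR adjusted p = 0.0909), which spans let-7g.

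Other known targets of let-7 moved in both directions. Of 34, all tested, 9 were higher, 6 lower and 19 did not pass the test, with a median log2 fold change of −0.01. All tested genes gave 15.3% higher and 18.1% lower. The 4 with the smallest adjusted p were all lower. CCND2, a D-type cyclin, fell from 900 ± 17.2 to 689 ± 25 CPM (−0.39, edgeR adjusted p = 4.86e-08). CDC25A, a phosphatase that drives entry into S phase, fell by 0.40 on the log2 scale (edgeR adjusted p = 7.42e-08) and IGF1R, the receptor for insulin-like growth factors, by 0.27 (edgeR adjusted p = 1.33e-05), with DICER1 as the remaining one. Among the 9 that rose, PRTG, IRS2 and CDK6 were named after their values were seen. PRTG, a cell-surface protein of the early neural tube, rose from 931 ± 44 to 1126 ± 31.9 CPM (0.27, edgeR adjusted p = 2.63e-05). IRS2, an adaptor of the insulin receptor, rose by 0.39 on the log2 scale (edgeR adjusted p = 5.51e-05), and the cell cycle kinase CDK6 by 0.15 (edgeR adjusted p = 0.00683). TRIM71, the early embryonic ligase named for its let-7 control, was at 51 ± 0.614 and 50.1 ± 5.04 CPM (edgeR adjusted p = 0.771). In this list 25 of the 34 genes hold the let-7 match, with 7 of these higher and 4 lower.

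**Figure D4:**
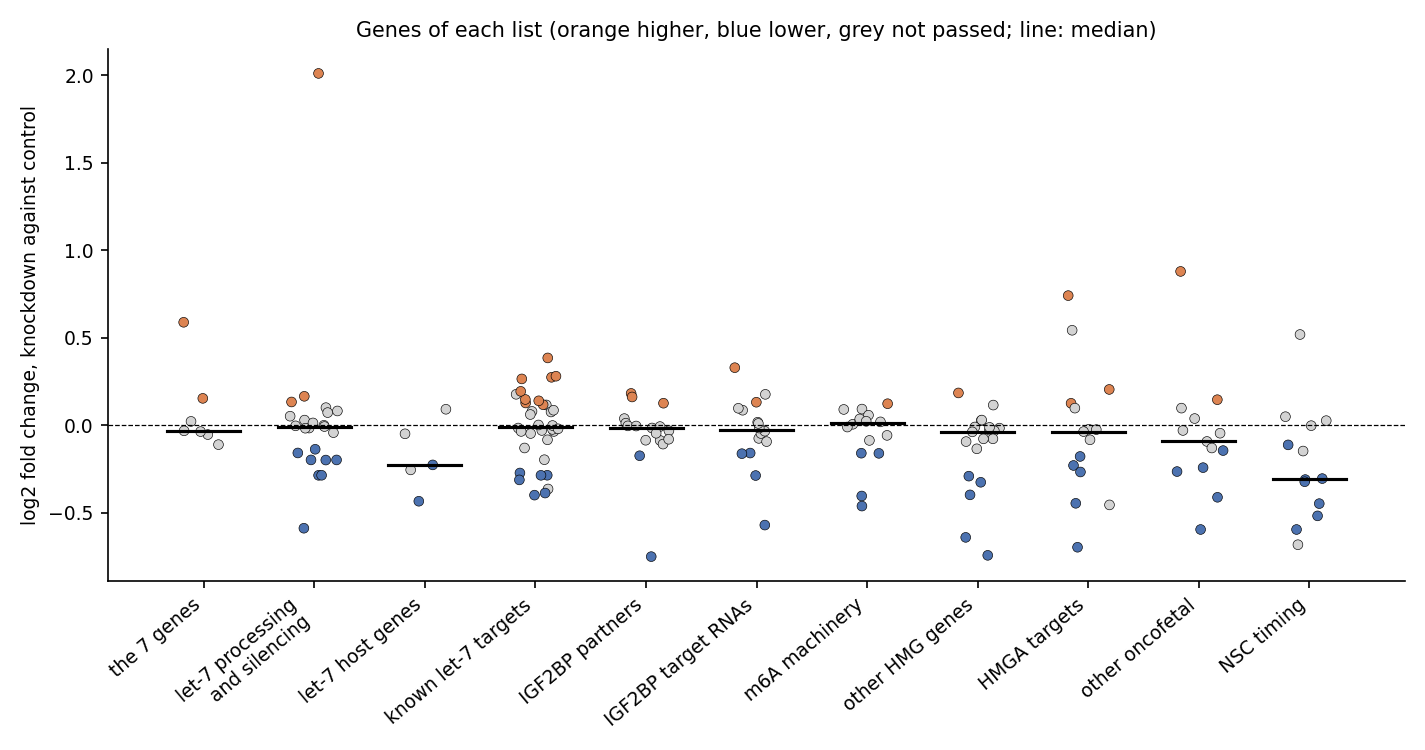
Log2 fold change of knockdown against control (y axis) of each tested gene, for the 7 genes and the lists around them (x axis). A line marks the median of each list. Colours mark genes that were higher, lower or did not pass the test at an edgeR adjusted p under 0.05. Calls fall on both sides in most lists, and the list of genes that make or act on let-7 has 8 lower and 3 higher of 23. Among all tested genes 18.1% were lower and 15.3% higher.

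Across the transcriptome, genes with the let-7 match were called about as often in each direction as genes without it. Of 12053 tested genes with a 3′ UTR of 50 bases or more, 1383 (11.5%) held CTACCTC in the longest 3′ UTR. Of these 16.9% were higher and 19.7% lower, with a median log2 fold change of −0.01. Of the 10670 genes without it 16.1% were higher and 18.7% lower, with a median of 0.00. The 539 genes with the match followed by A had 19.7% higher and 17.3% lower, and the 175 genes with 2 or more matches had 16.0% higher and 25.7% lower. Genes with the match have longer 3′ UTRs, with a median of 3156 bases against 1321 bases without it, and the part of that length was not tested. The miR-125 match was present in 2036 genes, of which 17.1% were higher and 20.9% lower.

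The word TCATCCA was singled out in an earlier look at these data, so its values describe them only. It occurs in the longest 3′ UTR of 1446 genes, of which 8.92% were higher and 38.7% lower, with a median log2 fold change of −0.10. None of the 7 genes holds it in any coding transcript. It is present in XPO5, DICER1 and AGO1, in CCND2, CDC25A and IGF1R, and in YBX1, MKI67, ZC3H13, HMGB1 and RB1, which are described with their groups and were lower, and in PRTG, which was higher. Its part in those differences was not tested.

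**Figure D5:**
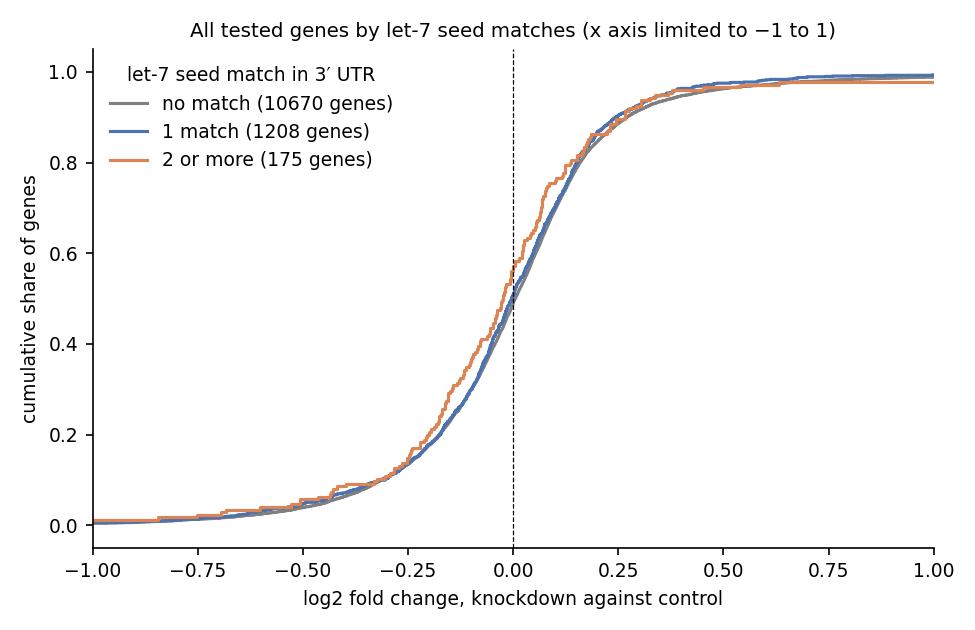
Cumulative share of tested genes (y axis) by log2 fold change of knockdown against control (x axis). Genes are grouped by let-7 matches in the longest 3′ UTR, as none, exactly 1, and 2 or more. At an edgeR adjusted p under 0.05, 16.9% of genes with the let-7 match were higher and 19.7% lower, near the 16.2% and 18.8% of all genes.

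Proteins that share messenger ribonucleoprotein particles with the IGF2BP proteins gave 3 higher and 2 lower of 17, with a median log2 fold change of −0.01. The shares over all tested genes were 15.3% higher and 18.1% lower. YBX1, a cold-shock protein that packages messages and is found in IGF2BP1 complexes, fell from 573 ± 30.4 to 340 ± 1.58 CPM, 1.68-fold (log2 fold change −0.75, edgeR adjusted p = 2.16e-14). FXR1 and FMR1, translational regulators of the fragile X family, rose by 0.16 (edgeR adjusted p = 0.00371) and 0.18 (edgeR adjusted p = 0.00403).

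Messages known to be bound by IGF2BP proteins gave 2 higher and 4 lower of 16 tested, with a median of −0.02. For all tested genes the shares were 15.3% and 18.1%. MKI67, the proliferation marker, fell from 400 ± 34.9 to 269 ± 25.5 CPM (−0.57, edgeR adjusted p = 3.38e-09). HK2, which starts glycolysis, fell by 0.29 on the log2 scale (edgeR adjusted p = 0.000853). BTRC, the F-box protein whose message IGF2BP1 stabilises, rose from 91.1 ± 4.04 to 114 ± 3.9 CPM (0.33, edgeR adjusted p = 2.54e-06). MYC was at 37.8 CPM in control and 39.9 CPM in knockdown libraries (edgeR adjusted p = 0.373). IGF2, for which the family is named, was listed at 0 to 2 counts per library and H19 at 0.

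Genes that write, read or erase m6A, the mark that IGF2BP proteins read, gave 1 higher and 4 lower of 16, with a median of 0.01. Across all tested genes 15.3% were higher and 18.1% lower. ALKBH5, an eraser, fell from 117 ± 1.9 to 84.9 ± 1.93 CPM (−0.46, edgeR adjusted p = 2.25e-09). ZC3H13, a subunit of the writer complex, fell from 137 ± 8.79 to 103 ± 3.2 CPM (−0.40, edgeR adjusted p = 1.35e-07), and RBM15B, another subunit, by 0.16 on the log2 scale (edgeR adjusted p = 0.00609).

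A list of other HMG genes, with HMGB, HMGN, TOX and TCF/LEF genes among them, gave 1 higher and 5 lower of 19 tested. Their median was −0.04, and of all tested genes 15.3% were higher and 18.1% lower. Membership of this list does not mean a domain shared with HMGA1 and HMGA2. LEF1, a transcription factor of the Wnt pathway, fell from 57.1 ± 1.5 to 34.1 ± 1.43 CPM (−0.74, edgeR adjusted p = 6.72e-11). HMGB1, an abundant chromatin protein, fell from 441 ± 2.88 to 352 ± 10.9 CPM (−0.32, edgeR adjusted p = 5.6e-07), and SSRP1, a subunit of the histone chaperone FACT, from 290 ± 15.6 to 236 ± 10.1 CPM (−0.29, edgeR adjusted p = 1.3e-05).

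Genes linked to HMGA proteins, as reported targets or in other ways, gave 3 higher and 5 lower of 15 tested. The median was −0.04, and all tested genes gave 15.3% higher and 18.1% lower. RB1, the retinoblastoma protein that binds HMGA2, fell from 137 ± 0.762 to 84.8 ± 5.29 CPM (−0.70, edgeR adjusted p = 5.91e-13). TWIST1 fell by 0.44 on the log2 scale (edgeR adjusted p = 1.64e-05) and E2F1, which RB1 restrains, by 0.27 (edgeR adjusted p = 0.000117). SNAI2, a repressor of epithelial genes, rose by 0.21 (edgeR adjusted p = 0.000704). CDKN2A, a cell cycle inhibitor lowered by HMGA2 in young neural stem cells and named after its values were seen, was at 2.98 ± 0.581 CPM in control and 5.02 ± 1.28 CPM in knockdown libraries. The difference of 0.74 on the log2 scale had an edgeR adjusted p of 0.00789, and of 0.083 without knockdown replicate 1.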

How the data were processed

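RNA was sequenced in 3 control and 3 knockdown libraries of AF22, grouped by the labels. The authors deposited 1 table of unnormalised read counts per gene symbol for each library. Tools listed in the submitters' processing notes are STAR 2.7.10a, Trim Galore 0.6.6 and bedtools, with hg38 as the build. How reads were counted, with which annotation and strand setting, is not given in the sources used here, so a count may include reads of a gene that overlaps on the other strand.

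In edgeR 4.0.16 under R 4.3.3, filterByExpr removed genes with low counts, TMM gave scaling factors of 0.9797 to 1.015, and knockdown was tested against control by the quasi-likelihood test without covariates. Benjamini-Hochberg adjustment ran over 13632 genes, with a threshold of 0.05. A gene listed at 0 allows up to 0.259 to 0.411 CPM (3 counts), for counting error only. No pair of replicates agreed within sampling noise, as 1 library deposited under 2 names would (chi-square per degree of freedom 1.23 to 1.994). This does not show that they were separate cultures. The test was tried on simulated counts first.

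The members and gene lists were chosen with earlier results of these data known. Named were the 7 genes, the knockdown targets, from each list up to 4 called genes, by adjusted p, and the 3 genes most like each called member among those with a mean of 5 CPM or more. Some genes that this rule gives are not reported here. Others are said to be named after their values were seen. Alternatives were other scalings and filters, DESeq2 1.42.0, voom of limma 3.58.1, an adjusted p under 0.01, the replicate number as a block and leaving out each library. Another 3 were added after the data were seen: other 3′ UTR words, the let-7 match in any coding transcript, and length by the longest coding transcript. Coordinates and 3′ UTRs are those of GENCODE v29 (GRCh38), and miRNA sequences those of RefSeq (GRCh38.p14).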

Additional observations from a re-analysis of the deposited data

How the results depend on the processing

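LIN28A was called higher in every analysis run (log2 fold change 0.56 to 0.64), as was IGF2BP3 (0.14 to 0.18). HMGA1 passed the threshold as lower in the fit with a replicate block (−0.11, adjusted p = 0.0249) and without control replicate 1, with values of −0.17 to −0.052 over the libraries left out. The number of the 7 genes called lower was then 1, and 0 to 1 over the libraries left out. Over the libraries left out, these values changed sign: IGF2BP1 ran from −0.060 to 0.0055, the log2 ratio IGF2BP2 to IGF2BP1 from −0.049 to 0.031, TRIM71 from −0.091 to 0.055 and the leukocyte marker CD68 from −0.28 to 0.042. IGF2BP1 turned without control replicate 3, the ratio without replicate 2 of either group, TRIM71 without knockdown replicate 1 and CD68 without control replicate 1. The causes were not tested. DESeq2 called 2865 genes and edgeR at an adjusted p under 0.01 called 2943, against 4545 in edgeR at 0.05. The genes called higher numbered 1170, 1224 and 2084 in the same order. Of the genes with 2 or more let-7 matches 41.7% were called, against 36.6% with 1 or more. The labels number the replicates 1 to 3 in both groups. Deviations of same-numbered libraries correlated at 0.0792, 0.00548 and 0.0713, and not every library correlated best with its own number, so the numbers were not taken to pair the libraries. The block gave 5248 calls (2458 higher), including 4544 of the 4545. With 3 libraries a group the SE of a member's log2 fold change was 0.042 to 0.0479, which limits the differences that could be detected.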

Other observations

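Other oncofetal genes outside the 3 families were more often lower than higher, with 5 lower and 2 higher of 13 tested and a median log2 fold change of −0.09. Over all tested genes 18.1% were lower and 15.3% higher. PLAGL1, an imprinted zinc-finger gene of embryonic growth, fell from 245 ± 16.1 to 162 ± 3.06 CPM (−0.59, edgeR adjusted p = 1.53e-11). PEG10, an imprinted gene of retroviral origin, fell from 1082 ± 62 to 814 ± 33.9 CPM (−0.41, edgeR adjusted p = 6.9e-08). AFP, the fetal serum protein, rose from 3.55 ± 0.331 to 6.58 ± 1.38 CPM (0.88, edgeR adjusted p = 0.000499). Genes tied to the timing of neural stem cells gave 7 lower and 0 higher of 13 tested, with a median of −0.30. The other 6, among them NR2F1, NR2F2 and DACH1, did not pass the test. The median was −0.15 without the filter on low counts, which adds genes of the list with few counts. SOX9, a regulator of gliogenesis, fell from 187 ± 4.35 to 149 ± 8.68 CPM (−0.32, edgeR adjusted p = 2.21e-06). NFIB, which promotes late differentiation, fell from 52.7 ± 2.6 to 38.4 ± 2.72 CPM (−0.45, edgeR adjusted p = 3.07e-06). POU2F1 fell by 0.31 on the log2 scale (edgeR adjusted p = 3.55e-06).

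LIN28A is used as a marker of pluripotent cells, and of the 5 pluripotency markers tested 3 were lower and 0 higher. Of all tested genes 18.1% were lower and 15.3% higher. The summed level of the 5 markers was 362 to 363 CPM in control and 313 to 337 CPM in knockdown libraries. POU5F1, whose pseudogenes are close copies, was at 59.1 ± 2.28 and 45.7 ± 4.02 CPM (−0.37, edgeR adjusted p = 2.54e-05). DNMT3B fell by 0.31 on the log2 scale (edgeR adjusted p = 1.56e-05) and SALL4 by 0.24 (edgeR adjusted p = 0.00529). DPPA4, at 171 CPM in control and 170 CPM in knockdown libraries, did not pass the test (edgeR adjusted p = 0.85). Nor did DPPA2, at 1.47 and 1.64 CPM (edgeR adjusted p = 0.837). NANOG was listed at 0 to 2 counts per library. The neighbour DHDDS, 2560 bases to the right of LIN28A, rose from 57.3 ± 2.06 to 68.6 ± 2.04 CPM (0.26, edgeR adjusted p = 0.000318). HACE1, 76697 bases to the left of LIN28B, fell by 0.51 on the log2 scale (edgeR adjusted p = 5.42e-08). BVES, 13490 bases to its right and named after its values were seen, fell by 0.39 (edgeR adjusted p = 0.000154). The tested nearest neighbours of HMGA2, IGF2BP2 and IGF2BP3 did not pass the test (edgeR adjusted p = 0.103 to 0.874). Of the genes named here PEG10, SOX9, POU2F1, DNMT3B, HACE1 and BVES hold the word TCATCCA in the longest 3′ UTR, and its part in their falls was not tested.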
